A study of Mus musculus with 6 samples.

Results

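Cyclins are regulatory subunits that come and go through the cell cycle, and each switches on a cyclin-dependent kinase (CDK). D-type cyclins with CDK4 open the cycle in G1, cyclin E with CDK2 drives entry into S phase, and cyclin A with CDK2 acts during DNA replication. Cyclin H, CDK7 and the assembly factor MAT1 form the CDK-activating kinase, which phosphorylates other CDKs and also serves the transcription factor TFIIH. Fully-grown oocytes (FGOs) at the germinal vesicle (GV) stage are arrested in meiotic prophase, have finished premeiotic DNA replication long before, and keep mRNAs for later use by the egg and early embryo. The genes described here were the 10 interphase cyclins and kinases Ccna2, Ccnd1, Ccnd2, Ccnd3, Ccne1, Ccne2, Ccnh, Cdk2, Cdk4 and Cdk7, taken by name from the 24255 genes listed. All 10 were found.

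Their mRNA levels were compared between wild type (WT) FGOs and FGOs of Lsm14b-KO mice, which lack the RNA-binding protein LSM14B. The KO allele, Lsm14b tm1a(KOMP)Mbp, is a reporter-tagged insertion carried in both copies on the C57BL/6J background. It is a germline allele, not limited to oocytes. Each genotype had 3 libraries of 20 pooled oocytes from females primed with 5 IU of PMSG, a gonadotropin, 46 h earlier, and the age of these females is not given in the sources used here. Nothing says that the 3 libraries of a group came from separate mice, so p-values measure only the spread between libraries. Levels are given as FPKM, the fragments assigned to a gene per length of transcript and per number of mapped fragments, and can therefore be compared between genes. Where values of single libraries are listed, they follow the order of replicates 1, 2 and 3.

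FPKM carries no read number, and only the relative depth of the libraries could be read, from the spacing of their lowest values. With WT replicate 1 set to 1, it was 1.03 to 1.14 in the other WT libraries and 1.33 to 2.17 in the Lsm14b-KO libraries. Lsm14b itself was listed at 1.72 to 3.98 FPKM in WT and at 0 to 0.10 FPKM in Lsm14b-KO libraries. All 10 oocyte markers examined were present, whereas all 6 listed red blood cell genes were at 0 in every library. Of 12 granulosa and cumulus cell markers, Amh, Foxl2, Inhba and Cyp11a1 were at 0 in all 6 libraries. Of the other 8, 7 had a higher mean in Lsm14b-KO libraries, and Cyp19a1, the aromatase gene, had a lower one (8.26 to 11.5 FPKM in WT and 3.00 to 5.76 FPKM in Lsm14b-KO). Cyp19a1 made up most of the summed level of the list, which was 9.68 to 13.5 FPKM in WT and 6.13 to 10.0 FPKM in Lsm14b-KO, and the sum without it was 1.25 to 2.08 FPKM in WT and 3.13 to 4.25 FPKM in Lsm14b-KO.

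The levels of the interphase cyclins and kinases in WT FGOs ran from among the upper ranks of all listed genes down to 0. Ccnh was the most abundant member, with a mean of 10.3 ± 0.97 FPKM (SD, n = 3), followed by Ccna2 with 3.82 ± 0.75 FPKM. As oocytes were pooled, fewer expressing oocytes and less mRNA per oocyte cannot be told apart. Ccne2 and Cdk7 came next, at 1.08 ± 0.40 and 0.99 ± 0.14 FPKM, and their values overlapped. Below them Cdk2, at 0.28 ± 0.19 FPKM, overlapped with Cdk4, at 0.15 ± 0.13 FPKM. Ccnd3 had 0.13 ± 0.13 FPKM, Ccnd1 0.023 ± 0.040 FPKM and Ccnd2 0.013 ± 0.023 FPKM, and each overlapped with its neighbour in this order. Ccne1 was listed at 0 in all 3 WT libraries. In Lsm14b-KO FGOs Ccnh and Ccna2 were again first and second without overlap, and from Ccne2 downwards every member overlapped with the next. Averaged over the 6 libraries, Ccnh ranked above 92.7% of all listed genes and above 72.4% of the genes that were tested, whereas Cdk7 ranked above 12.7% of the tested genes.

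**Figure D1:**
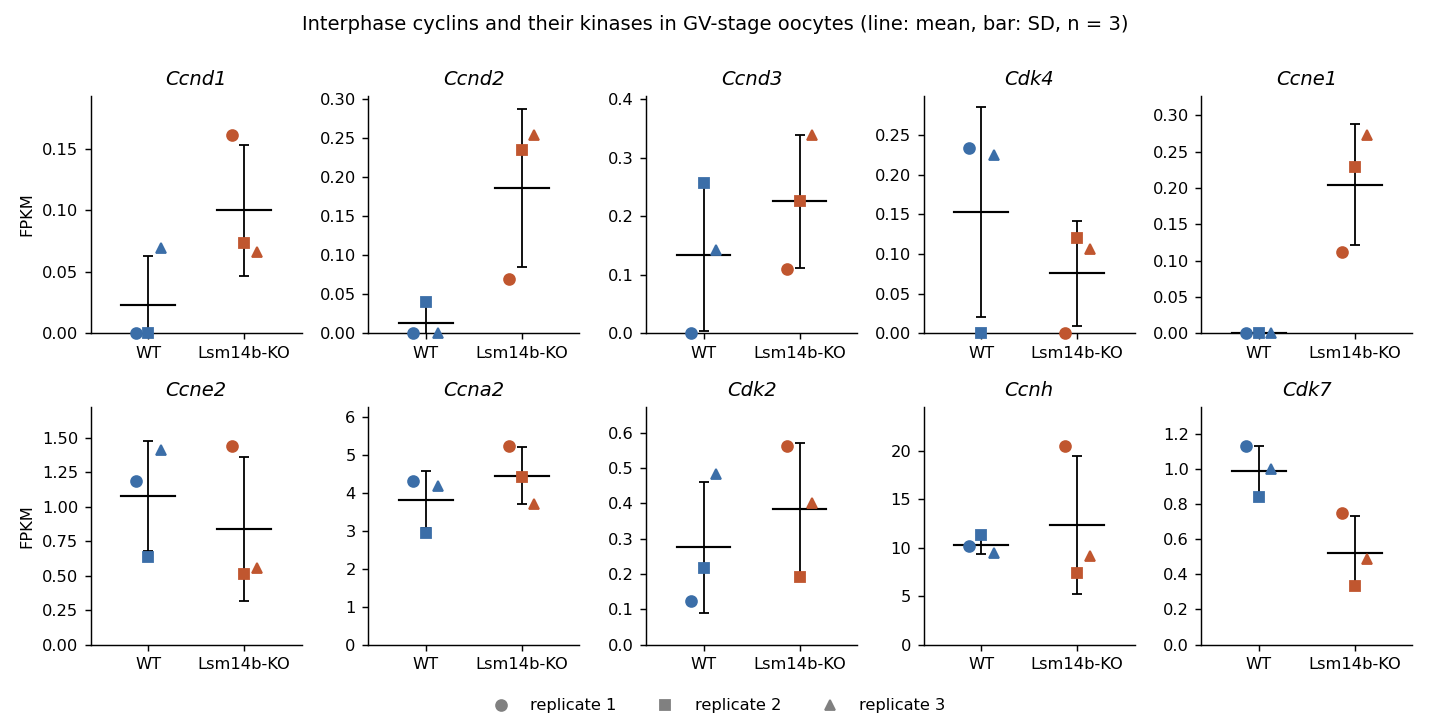
FPKM (linear axes that start at 0 and differ between panels) of each of the 10 genes in the 3 WT and 3 Lsm14b-KO libraries, with the marker shape giving the replicate, the line the mean and the bar the SD (n = 3). The groups lie apart for Ccnd2, Ccne1 and Cdk7, and Lsm14b-KO replicate 1 stands far above the other libraries for Ccnh.

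Genes with 1 FPKM or more in any library were tested with limma on log2(FPKM + 1), a scale that understates the change of low genes. Only 4 members, Ccnh, Ccna2, Ccne2 and Cdk7, reached this minimum, and the other 6 are described by their values. None of the 4 had an adjusted p under 0.05 in limma, and 0 had an unadjusted p under 0.05. Among the 6398 genes tested, 21.6% passed the adjusted threshold, 6.38% as higher and 15.2% as lower in Lsm14b-KO FGOs, and 39.4% had an unadjusted p under 0.05. With 4 tested members, this difference from the background is a description. Relative depth and genotype moved together, as every Lsm14b-KO library was deeper than every WT library, and the part of depth in these results was not tested.

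Ccnh encodes cyclin H, the regulatory subunit of the CDK-activating kinase. The gene lies on chromosome 13, 85189408 to 85223469 (GRCm38/mm10, plus strand, protein coding), and its transcript model has 9 exons and 2045 nt. It had 10.2, 11.3 and 9.40 FPKM across the WT replicates, and 20.4, 7.41 and 9.11 FPKM across the Lsm14b-KO replicates. The WT values were close together, whereas Lsm14b-KO replicate 1 lay far above them and the other Lsm14b-KO libraries lay below all of them. In limma the difference between the group means was 0.12 on the log2 scale, with an SE of 0.36 and an adjusted p of 0.824. Leaving out Lsm14b-KO replicate 1 turned it to -0.29 (limma, adjusted p 0.2596), so this library set the direction.

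Cdk7 encodes the catalytic subunit of the same complex and lies on chromosome 13, 100702631 to 100730939 (minus strand, protein coding, 12 exons, 1988 nt). Its level was 1.13, 0.84 and 1.00 FPKM across the WT replicates. Across the Lsm14b-KO replicates it was 0.75, 0.33 and 0.49 FPKM, all below the lowest WT value. The log2 difference was -0.39 with an SE of 0.20 (limma, adjusted p 0.177). Cdk7 passed the minimum only through WT replicates 1 and 3, as no Lsm14b-KO library reached 1 FPKM. Without the minimum its adjusted p was 0.246 in limma. Among the tested genes the groups did not overlap in 45.0%, and Lsm14b-KO was the lower group in 26.0%, so separation of this kind was common. Scaled by transcript length and depth, these values correspond to about 4 to 8 fragments per library, compared with about 66 to 186 for Ccnh. These numbers are estimates, as they were scaled from the values of other members.

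Mnat1, which encodes MAT1, was examined with its partners. It had 5.40, 4.04 and 5.67 FPKM across the WT replicates, and 4.31, 2.37 and 2.69 FPKM across the Lsm14b-KO replicates. The groups overlapped by the level of Lsm14b-KO replicate 1. Its log2 difference was -0.57 with an SE of 0.25 (limma, adjusted p 0.129), and leaving out that library gave -0.77 with an adjusted p of 0.0244. In that fit 2898 of the 6398 tested genes passed, against 1383 as reported.

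The balance between partner genes was followed as the ratio of their FPKM within a library, which does not depend on how a library is scaled. The ratio of Ccnh to Cdk7 was 8.99, 13.4 and 9.39 across the WT replicates, and 27.2, 22.1 and 18.6 across the Lsm14b-KO replicates. Every Lsm14b-KO ratio lay above every WT ratio, and the mean log2 ratio was 1.10 higher, a 2.15-fold difference. With 1 FPKM added to both genes, which damps the low Cdk7 values, the difference was 0.51 and the groups overlapped (5.198 to 6.69 in WT and 6.30 to 12.2 in Lsm14b-KO). For Ccnh to Mnat1 the ratios were 1.88, 2.81 and 1.66 in WT and 4.74, 3.13 and 3.39 across the Lsm14b-KO replicates. Here too the groups did not overlap, with a 1.79-fold difference. Among single tested genes the groups did not overlap in 45.0%, and the share of other gene pairs whose ratios separate was not computed. In both pairs the exact permutation test, two-sided, gave p = 0.10, the smallest that 3 libraries against 3 allow (adjusted p 0.15 over the 3 pairs that could be computed). With Lsm14b-KO replicate 1 left out, the log2 ratio was higher by 0.96 for Ccnh to Cdk7 and by 0.66 for Ccnh to Mnat1. The correction for transcript length and GC content was applied to values with 1 FPKM added. It gave log2 differences of 0.73 for Ccnh to Cdk7 and 0.96 for Ccnh to Mnat1, against 0.51 and 0.68 before it.

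**Figure D2:**
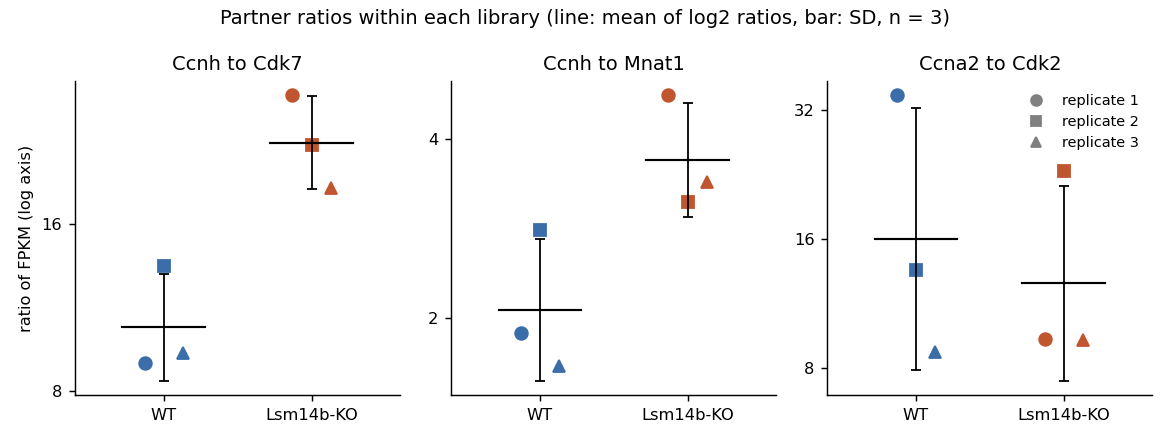
Ratio of the FPKM of partner genes within each library (log axis), for Ccnh to Cdk7, Ccnh to Mnat1 and Ccna2 to Cdk2, with the line at the mean of the log2 ratios and the bar at the SD (n = 3). The 3 Lsm14b-KO ratios sit above the 3 WT ratios for Ccnh to Cdk7 and Ccnh to Mnat1, and the groups overlap for Ccna2 to Cdk2.

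By the rule set for the most abundant member, the genes with the profile closest to that of Ccnh over the 6 libraries were Gng12, Znhit3 and l7Rn6, at distances of 0.23, 0.25 and 0.28 between their centred log2 profiles. Gng12, for example, had 175 to 212 FPKM in WT libraries and 369, 167 and 185 FPKM across the Lsm14b-KO replicates. These genes share with Ccnh the high value in Lsm14b-KO replicate 1.

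Ccna2 encodes cyclin A2, the somatic A-type cyclin that pairs with CDK2 and CDK1. It lies on chromosome 3, 36564865 to 36572150 (minus strand, protein coding, 8 exons, 2965 nt). It had 4.31, 2.95 and 4.19 FPKM across the WT replicates, and 5.23, 4.43 and 3.72 FPKM across the Lsm14b-KO replicates. The groups overlapped, and the log2 difference of 0.18 was smaller than its SE of 0.22 (limma, adjusted p 0.5495). The gene shares 510 exonic nt with Exosc9 on the other strand, which had 8.32 to 10.3 FPKM in WT and 7.72 to 16.2 FPKM in Lsm14b-KO libraries. The sources do not say whether strand was used in counting, so reads from the shared stretch may belong to either gene.

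Cdk2, which encodes the kinase partner of cyclins A and E, lies on chromosome 10, 128697939 to 128705031 (minus strand, 8 exons, 2406 nt). It had 0.12, 0.22 and 0.48 FPKM across the WT replicates, and 0.56, 0.19 and 0.40 FPKM across the Lsm14b-KO replicates. The groups overlapped and no library reached 1 FPKM. Ccna2 was the more abundant of this pair in every library, by 8.68 to 34.6 times in WT and by 9.29 to 23.1 times in Lsm14b-KO FGOs, and the ratio overlapped between genotypes (exact permutation test, two-sided, p = 0.70).

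The E-type cyclins were unequal. Ccne2 (chromosome 4, 11191351 to 11204779, plus strand, 12 exons, 3006 nt) had 1.18, 0.64 and 1.41 FPKM across the WT replicates. Across the Lsm14b-KO replicates it had 1.44, 0.51 and 0.56 FPKM, so that the highest value of all was in the first of them and the lowest in the second. The log2 difference of -0.20 was also smaller than its SE of 0.26 (limma, adjusted p 0.592). It became 0.10 once the FPKM sums of the libraries were made equal, a scaling that raised the median of all tested genes by 0.47, and relative to that median Ccne2 went from -0.12 to -0.29. Once transcript length and GC content were corrected for, it was 0.13, or 0.058 relative to the median. It shares 609 exonic nt with Ints8 on the other strand, which was listed at 0 to 0.16 FPKM.

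Ccne1 (chromosome 7, 38097984 to 38107534, minus strand, 12 exons, 2000 nt) encodes the other E-type cyclin and has no overlapping gene. It was listed at 0 in each WT library, and at 0.11, 0.23 and 0.27 FPKM across the Lsm14b-KO replicates. For genes this low, the deposited values of the 6 libraries, multiplied by relative depth, were whole multiples of a single step, to within 0.57% for the 6 members concerned. Such steps are what single fragments would give, although a step could also be worth more than 1 fragment. Ccne1 had 0 steps in every WT library and 1, 3 and 4 steps across the Lsm14b-KO replicates. With the listed zeros taken as 3 steps over the WT group, the 8 steps of the Lsm14b-KO group gave a depth-adjusted ratio of 1.55. The counting error of the Lsm14b-KO steps is left out of this ratio. No interval was computed for it, so no change is not excluded. Of the 7927 genes that were above 0 in some library but under 1 FPKM in all, 2.93% were at 0 in every WT library and above 0 in every Lsm14b-KO library.

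The D-type cyclins, which answer to growth factors in dividing cells, were all close to the limit of detection. Ccnd2 (chromosome 6, 127125162 to 127152193, minus strand, 5 exons, 6330 nt), known for its role in granulosa cell proliferation, was listed at 0, 0.040 and 0 FPKM across the WT replicates. It had 0.069, 0.23 and 0.25 FPKM across the Lsm14b-KO replicates, all above the highest WT value. In steps these were 0, 1 and 0 in WT and 2, 10 and 12 in Lsm14b-KO libraries. The depth-adjusted ratio of the group totals of 24 and 1 steps was 14.0, with an exact 95% interval of 2.28 to 574 that covers counting error only. Of the 8 granulosa and cumulus cell markers above 0, 7 also had a higher mean in Lsm14b-KO libraries. Of the 7, Amhr2, Hsd17b1 and Fst were above 0 in a single library each. Cyp19a1, the most abundant of the 8, went the other way without overlap (8.26 to 11.5 FPKM in WT and 3.00 to 5.76 FPKM in Lsm14b-KO). In 2 of the 7 the Lsm14b-KO group lay wholly above WT. Fshr, the receptor for follicle-stimulating hormone, had 0.35 to 1.68 FPKM in WT and 1.82 to 2.07 FPKM in Lsm14b-KO. Kitl, the ligand of the oocyte receptor KIT, had 0.097 to 0.38 FPKM in WT and 0.40 to 0.56 FPKM in Lsm14b-KO. Over all genes, the groups did not overlap in 45.0% of those tested, such as Fshr. This share counts both directions, and Lsm14b-KO was the lower group in 26.0% of the tested genes. Of genes as low as Kitl, 60.6% had a higher mean in Lsm14b-KO and 10.9% lay wholly above WT. The part of granulosa cell RNA in the Ccnd2 values was not tested. Ccnd2 also shares exonic sequence on the other strand with Gm43126 (372 nt), which has no row in the table, and with 9330179D12Rik (368 nt), which was at 0 in every library.

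Ccnd1 (chromosome 7, 144929931 to 144939925, minus strand, 5 exons, 3740 nt) had 0, 0 and 1 steps in WT and 3, 2 and 2 steps across the Lsm14b-KO replicates. In FPKM the groups overlapped, since 0.069 in WT replicate 3 exceeded 0.066 in Lsm14b-KO replicate 3. Ccnd1 shares 1100 exonic nt with Oraov1 on the other strand, which was listed at 0 to 0.077 FPKM. The depth-adjusted ratio was 4.07, with an exact 95% counting interval of 0.52 to 184. Ccnd3 (chromosome 17, 47505051 to 47599691, plus strand, 7 exons, 2113 nt) had 0, 2 and 1 steps in WT and 1, 3 and 5 steps in Lsm14b-KO libraries, a ratio of 1.75 with an interval of 0.44 to 10.0. Both intervals include no change. The annotation holds a pseudogene, Ccnd3-ps, that is 96.3% identical to Ccnd3 over 881 nt, and Ccnd3 also shares 361 exonic nt with Bysl, so its values are uncertain.

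Cdk4, which encodes the kinase of the D-type cyclins (chromosome 10, 127063534 to 127067920, plus strand, 8 exons, 2053 nt), was the lowest member in Lsm14b-KO FGOs. It was listed at 0.23, 0 and 0.22 FPKM across the WT replicates, and at 0, 0.12 and 0.11 FPKM across the Lsm14b-KO replicates. Each non-zero value was a single step, with 2 steps in each group, and a difference was not detectable at this depth. Cdk4 shares 641 exonic nt with Tspan31 on the other strand, which was listed at 0.34 to 3.04 FPKM. For Cdk2 the steps were 1, 2 and 4 in WT and 6, 3 and 7 across the Lsm14b-KO replicates, a depth-adjusted ratio of 1.33 with an exact 95% counting interval of 0.52 to 3.82.

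**Figure D3:**
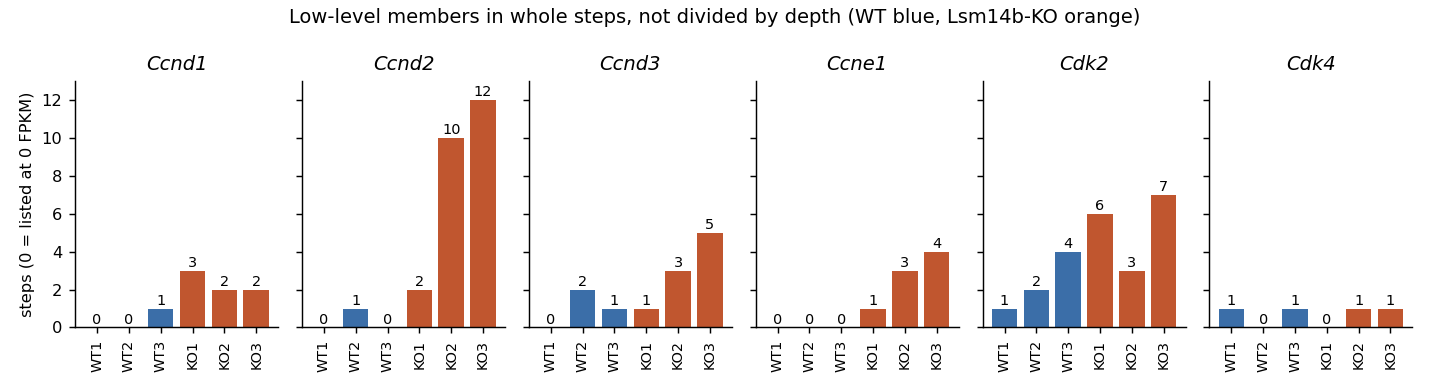
Number of whole steps (0 means listed at 0 FPKM) in each library for the 6 members under 1 FPKM in all libraries, with WT in blue and Lsm14b-KO in orange, not divided by the relative depth, which sums to 3.17 in WT and 5.45 in Lsm14b-KO. Ccnd2 reaches 10 and 12 steps in Lsm14b-KO replicates 2 and 3 against at most 1 in WT, and Ccne1 has none in WT.

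Of these 6 low members, 5 had a higher mean FPKM in Lsm14b-KO FGOs, and in 2 of them, Ccnd2 and Ccne1, the groups did not overlap. Among the 7927 genes at such levels, 60.6% had a higher mean in Lsm14b-KO libraries, and in 10.9% the Lsm14b-KO group lay wholly above WT. For Ccnd2 and Ccne1 the exact permutation test, two-sided, gave p = 0.10, the smallest possible, and for the other 4 it gave 0.20 to 0.60. When limma was run without the minimum level, 0 of the 10 members had an adjusted p under 0.05 (5.03% of 14325 genes did), and Ccnd2 and Ccne1 had an unadjusted p under 0.05, as did 23.4% of all genes in that fit. Their adjusted p-values were 0.122 and 0.0600 in limma. Across the 10 members, Lsm14b-KO replicate 1 was the top one of its group in 6 (Ccna2, Ccnd1, Ccne2, Ccnh, Cdk2 and Cdk7) and the bottom one in the other 4. The share of all genes in either position was not computed. For Ccnd1, Ccne1 and Cdk4 the position rests on 0 to 4 steps per Lsm14b-KO library.

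The scaling of the libraries moved the tested members together with all other genes. With FPKM sums made equal between libraries, the median log2 fold change of all tested genes shifted by 0.47, from -0.075 to 0.40. Ccna2 and Ccnh then had log2 fold changes of 0.75 and 0.74 (limma, adjusted p 0.0773 and 0.0731), whereas relative to the median of all genes both were higher by 0.35. These 2 of the 4 tested members then had an unadjusted p under 0.05, as did 43.5% of all tested genes, and 0 had an adjusted p under 0.05 against 20.6% of all. Relative to that median, Cdk7 was at -0.32 in the reported fit, at -0.52 under this scaling and at -0.23 after the length and GC correction. Over all tested genes, 29.5% of the calls were higher in Lsm14b-KO FGOs, against 63.2% under equal FPKM sums, 42.4% with quantile normalization and 41.2% after the length and GC correction.

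**Figure D4:**
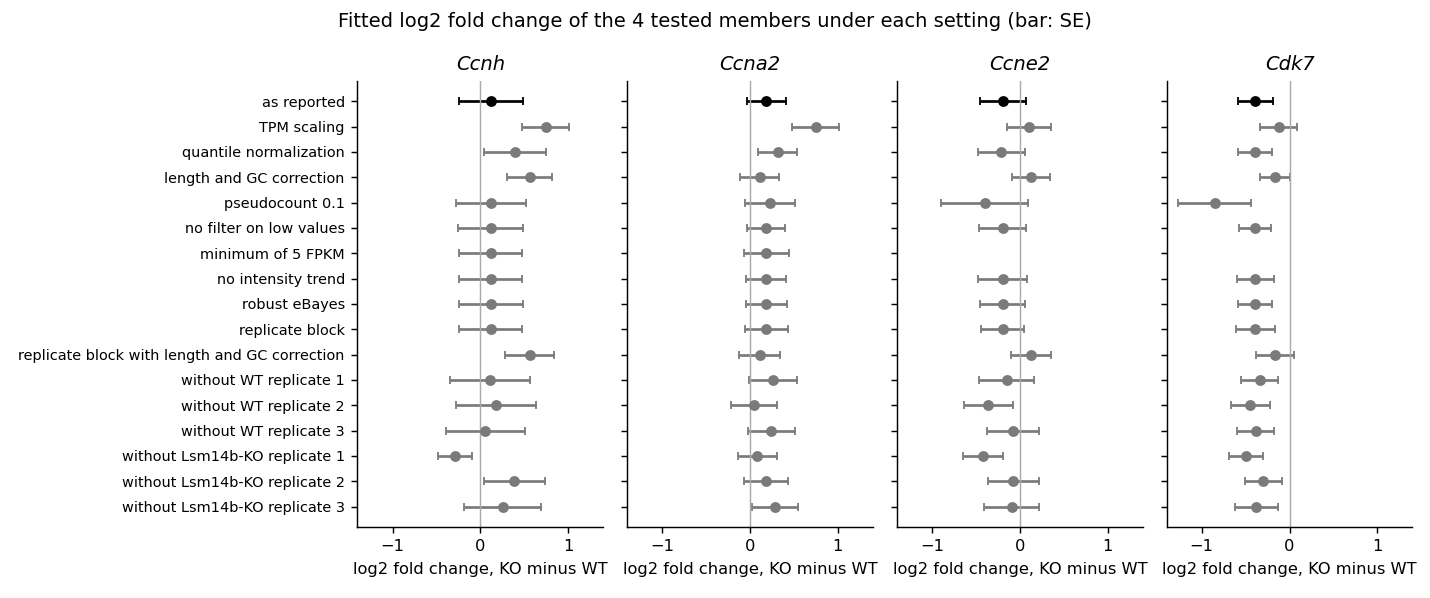
Log2 fold change (Lsm14b-KO minus WT, with its SE as a bar) of Ccnh, Ccna2, Ccne2 and Cdk7 as reported and under each alternative setting, with no point where a gene was not tested. Cdk7 stays below 0 and Ccna2 above 0 in every setting shown, and Ccnh falls below 0 without Lsm14b-KO replicate 1.

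Other genes of the cyclin and CDK network were taken from 3 lists. The first held 27 genes around the G1/S transition. These were CDK inhibitors, pocket proteins, E2F factors and their partners, and also Cdk6, Ccna1, Mnat1, Cdc25a, Skp2, Cks1b and Fbxw7. All 27 were listed, 3 of them (Ccna1, Cdkn1a and Cdkn2a) at 0 in every library and 15 others under 1 FPKM in every library. Of the 9 tested, 0 were higher, 2 were lower in Lsm14b-KO FGOs and 7 did not pass, with a median log2 fold change of -0.15 against -0.075 for all tested genes. Mnat1, described above, was among the 7. Over all tested genes, 6.38% were higher and 15.2% were lower. Rbl1 (chromosome 2, 157145893 to 157204534), which encodes the pocket protein p107 that holds E2F factors in check, had 3.58, 2.76 and 1.80 FPKM in WT and 0.33, 0.11 and 0.025 FPKM across the Lsm14b-KO replicates. It fell by 1.66 on the log2 scale (SE 0.24, adjusted p 0.00474 in limma), and all Lsm14b-KO values lay far below the WT values. Rbl1 reached 1 FPKM only in WT libraries, and without the minimum its adjusted p was 0.0179 in limma. Cks1b (chromosome 3, 89415472 to 89418383), which encodes a small CDK-binding subunit needed for destruction of the inhibitor p27, was far more abundant, with 4510, 4321 and 4133 FPKM in WT and 2196, 613 and 989 FPKM across the Lsm14b-KO replicates. It fell by 1.97 on the log2 scale (SE 0.45, adjusted p 0.0220 in limma), and was -1.15 with quantile normalization, -1.28 under equal FPKM sums and -1.32 after the length and GC correction, passing in each. The call was lost without any 1 of the WT libraries, without Lsm14b-KO replicate 3 and without a minimum level (limma, adjusted p 0.0643 to 0.101), with values of -2.004 to -1.896. Under equal FPKM sums Rb1, another pocket protein gene, also passed as higher, at 0.84. There 20.6% of all tested genes passed, and 63.2% of those calls were higher.

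The second list held 13 other cyclins, several of them tied to transcription or splicing, of which 8 were tested. None was higher, 1 was lower and 7 did not pass, against 6.38% higher and 15.2% lower over all tested genes. The median log2 fold change was 0.24. The cyclin that passed was Ccnl2 (chromosome 4, 155812489 to 155824543), the splicing-linked cyclin L2, with 1.96, 1.52 and 2.02 FPKM in WT and 0.69, 0.83 and 0.69 FPKM across the Lsm14b-KO replicates. Ccnl2 reached 1 FPKM only in WT libraries, and fell by 0.70 on the log2 scale (SE 0.18, adjusted p 0.0335 in limma). Under equal FPKM sums the value was -0.32 (adjusted p 0.34), and relative to the median of all genes it was -0.71 there and -0.63 as reported. The call was also lost without a minimum level, with the replicate block and in 5 of 6 fits with a single library removed, the exception being that without Lsm14b-KO replicate 1 (limma, adjusted p 0.0593 to 0.121). Under equal FPKM sums 1 cyclin was higher and 0 were lower, the higher one being Ccnc, the cyclin partner of CDK8 (0.99, or 0.60 relative to the median).

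The third list held 13 other cyclin-dependent kinases, of which 5 were tested. Among them 1 was higher, 0 were lower and 4 did not pass, against 6.38% higher and 15.2% lower over all tested genes. Their median log2 fold change was 0.58. The kinase that passed was Cdk8 (chromosome 5, 146231230 to 146302874), a subunit of the Mediator complex of transcription, with 2.38, 3.79 and 4.20 FPKM in WT and 5.13, 11.7 and 9.50 FPKM across the Lsm14b-KO replicates. It rose by 1.09 on the log2 scale (SE 0.32, adjusted p 0.0470 in limma). The annotation holds a copy, Gm7107, that is 98.3% identical to Cdk8 over 717 nt. The Cdk8 call was lost without any 1 library other than Lsm14b-KO replicate 1 (adjusted p 0.103 to 0.173 in limma), without a minimum level (0.107), with a pseudocount of 0.1 (0.0513) and without the intensity trend (0.0509). The counts for this list moved with the settings. Under equal FPKM sums 3 kinases were higher, with Cdk12 and Cdk17 beside Cdk8. After the length and GC correction 1 was higher and 1, Cdk20, was lower. Without Lsm14b-KO replicate 1, 2 were higher, Cdk8 and Cdk12, and 1 was lower, Cdk20. Of all tested genes, 1319 passed under equal FPKM sums, 1396 after the length and GC correction and 2898 without Lsm14b-KO replicate 1.

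**Figure D5:**
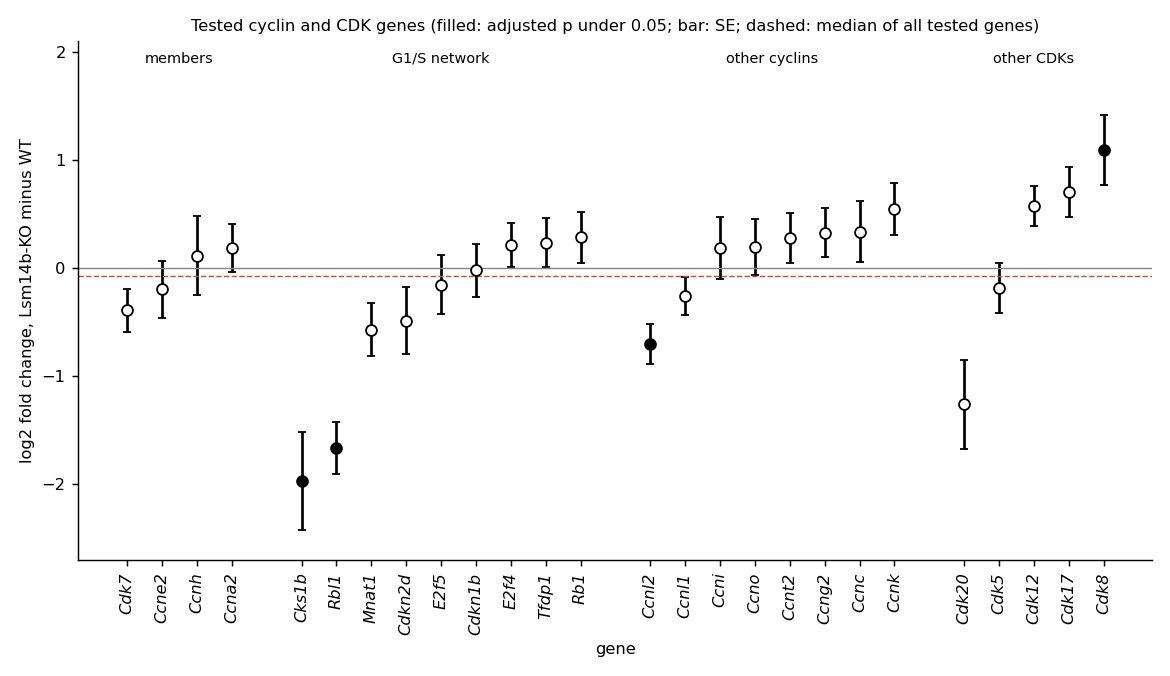
Log2 fold change (Lsm14b-KO minus WT) of the 4 tested members and of the tested genes of the 3 lists, with the SE as a bar, filled circles for an adjusted p under 0.05 in limma and a dashed line at the median of all tested genes (-0.075). Cks1b, Rbl1 and Ccnl2 are filled below 0 and Cdk8 above 0, and the 4 members are open circles near 0.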

How the data were processed

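RNA of 20 GV-stage FGOs per library was amplified by Smart-seq2 in 3 WT and 3 Lsm14b-KO libraries. Per the submitters' notes, the authors aligned the reads to mm10 with TopHat2 2.0.13 and computed FPKM with Cufflinks 2.2.1, and the annotation is not given in the sources used here. In the deposited table, each library has a column of FPKM. Its columns of log2 fold change, p-value and q-value hold the authors' own comparison and were not used. Groups came from the sample titles.

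The deposited FPKM values were analysed as log2(FPKM + 1) with limma 3.58.1 in R 4.3.3 (intensity trend, genotype as the only term, two-sided) for the 6398 genes that reached 1 FPKM in any library. Adjustment was by the Benjamini-Hochberg method over all of them. The fit was tested on simulated data. FPKM holds no counts, so no count model was fitted. Relative depth is the commonest ratio of values under 0.15 FPKM between a library and WT replicate 1, which 187 to 311 of 604 to 691 genes gave. Steps were accepted when all values were whole to within 2%. Approximate fragment numbers used the median step per kilobase of the members that had steps. Ccnh, Ccna2, Ccne2 and Cdk7 had no common step. Exact permutation tests were run with scipy 1.17.1. Transcripts, coordinates and exons came from GENCODE vM21 (GRCm38, the assembly of mm10), and length and GC content were found for 6321 (98.8%) of the tested genes. Copies were searched for with blastn 2.17.0 at 95% identity over at least 200 nt.

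The sources name 2 different library kits and do not say whether counting used strand. Named were all 10 members, Lsm14b, Mnat1 as a partner, up to 4 genes per list and direction with an adjusted p under 0.05, and the 3 genes closest in profile to the most abundant member. Values of neighbouring genes, of Fshr, Kitl and Cyp19a1, and of list genes called only under an alternative were added after the data were seen, as were the steps and the permutation tests of untested members. Members and lists were chosen with earlier results of these data known. The alternatives tried are given with their effects in the closing section.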

Additional observations from a re-analysis of the deposited data

How the results depend on the processing

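No member that was tested had an adjusted p under 0.05 in limma in any of the 16 alternatives, of which 14 tested 4 members, 1 (a minimum of 5 FPKM) tested 2 and 1 (no minimum) tested all 10. The number of genes called was 1383 as reported, 720 without a minimum level, and 315 to 2898 when 1 library was left out (396, 397 and 462 without WT replicates 1, 2 and 3, and 2898, 865 and 315 without Lsm14b-KO replicates 1, 2 and 3). In the other alternatives it was 1014 to 1396. The log2 difference of Ccne2 became 0.10 under equal FPKM sums and 0.13 with length and GC corrected for, alone or with the replicate block, against medians of all genes of 0.40 and 0.070. That of Ccnh was -0.29 without Lsm14b-KO replicate 1 (range -0.29 to 0.39 when 1 library was left out). Ccna2 and Cdk7 kept their sign. The log2 ratio of Ccna2 to Cdk2 was lower in Lsm14b-KO by 0.34 as reported (-0.34), but turned to 0.064 with 1 FPKM added and to 0.22 without WT replicate 1 (range -0.78 to 0.22 when 1 library was left out). The ratios of Ccnh to Cdk7 and to Mnat1 stayed higher, by 0.51 to 1.28 and 0.66 to 1.06, but the former overlapped between groups with 1 FPKM added. The ratio of Ccna2 to Cdk2 was not computed with the length and GC correction, since Cdk2 was not tested. With the replicate number as a block, 1244 genes were called (1299 with the length and GC correction). The numbers are shared without evidence of pairing, since deviations of same-numbered libraries correlated at 0.19, -0.13 and 0.018 for numbers 1, 2 and 3, and not every library correlated best with its own number. In the block fit Ccnl2 had an adjusted p of 0.0646, and the other 3 called list genes kept their calls. Depth limits the 6 members under 1 FPKM, which rest on 0 to 12 steps per library, and also Cdk7 and Ccne2, at about 4 to 8 and 7 to 19 fragments. The values of Cdk7 and Ccne2 gave no common step, so their fragment numbers are estimates.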

Other observations

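The 3 lists held 15, 5 and 7 genes that were above 0 but under 1 FPKM in every library. Of these untested genes, 5 had groups that did not overlap. They were picked after their values were seen and carry no test, and the Lsm14b-KO group lay wholly above WT in 10.9% and wholly below it in 3.999% of the 7927 genes at such levels. Ccng1, which encodes a p53-responsive cyclin, had 0.076 to 0.16 FPKM in WT and 0.40 to 0.76 FPKM in Lsm14b-KO libraries. Ccnt1 encodes cyclin T1 of the elongation factor P-TEFb and had 0 to 0.38 FPKM in WT and 0.69 to 0.95 FPKM in Lsm14b-KO libraries. Its kinase partner Cdk9 was listed at 0 in WT and at 0.037 to 0.12 FPKM in Lsm14b-KO libraries. Cdk14, a kinase bound by cyclin Y, had 0 to 0.19 FPKM in WT and 0.29 to 0.70 FPKM in Lsm14b-KO libraries. Cdk6, the other kinase of the D-type cyclins, went the opposite way, with 0.11 to 0.40 FPKM in WT and 0 to 0.086 FPKM in Lsm14b-KO libraries.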
